A study of Sus scrofa with 35 samples.

Results

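The genes of MHC class II antigen presentation were examined in whole blood of pigs kept in thermoneutral (TN) conditions or under heat stress (HS). The array probes were chosen by gene name alone, taking every probe that was not a control and whose name was CD74, CIITA or a swine leukocyte antigen (SLA) class II gene beginning with SLA-D. This gave 35 of the 60305 probes of the array, and all 35 were among the 39072 probes with values in the table of the authors. They carried 9 of the 45222 names on the array, many of which are transcript identifiers and not gene symbols. They comprised 7 probes named SLA-DRA, 4 SLA-DRB1, 7 SLA-DQA, 2 SLA-DQA1, 4 SLA-DQB1, 2 SLA-DMA, 2 SLA-DMB, 3 SLA-DOB and 4 CD74. Of the 10 gene names looked for, 8 were found, and SLA-DOA and CIITA had 0 probes under those names. Each array held RNA of 1 castrated male growing pig. The 35 pigs were Creole (CR, a local breed of the Caribbean), Large White (LW, a European commercial breed) or the F1 cross of these breeds. TN pigs were labelled 24 °C, and HS pigs were labelled 30 °C in the sample fields and 32 °C for 5 d in the protocol text. There were 6 pigs in each of the 6 groups of breed and climate except CR TN, with 5 pigs. TN pigs were killed before the room was warmed and HS pigs afterwards, so climate cannot be told apart from day of slaughter. The paper also reports that pigs ate less under HS, so heat cannot be told apart from feed intake. Each pen held pigs of 1 breed and 1 climate, and littermates were spread over pens. Replicate numbers were assigned here in the order of the sample list and only name the pigs. The labels hold no litter, pen, sire or dam, so the p-values treat pigs as independent and may be too small.

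MHC class II molecules are pairs of an alpha and a beta chain that show peptides of ingested material to helper T cells. In blood they are found mainly on B cells, monocytes and dendritic cells, and in pigs also on part of the T cells. SLA-DR and SLA-DQ molecules present the peptide, the invariant chain CD74 escorts the new molecule and fills its groove, SLA-DM exchanges the remnant of CD74 for a peptide, and SLA-DO restrains SLA-DM. SLA-DR and SLA-DQ chains differ in sequence between individuals, mostly around the groove, so a short probe may bind transcripts of some alleles better than others.

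The sequences below are those of the array probes that carry the differences described here, written as the scanner files give them, with a length of 60 bases each. The first pair was printed because both probes read the same stretch of an SLA-DQ alpha transcript with other letters. Over 59 aligned bases they differed at 5 positions, which are in capitals.

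A_72_P763148: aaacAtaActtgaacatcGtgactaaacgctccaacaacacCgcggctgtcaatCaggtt
A_72_P743257: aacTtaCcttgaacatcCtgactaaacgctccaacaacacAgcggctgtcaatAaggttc

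The next 3 SLA-DQA probes were printed because they overlap and include the only probe that passed an adjusted p under 0.05 between CR and LW pigs. Capitals in A_72_P712598 mark 35 bases shared with A_72_P746609, and capitals in the other two mark 30 bases shared between them.

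A_72_P712598: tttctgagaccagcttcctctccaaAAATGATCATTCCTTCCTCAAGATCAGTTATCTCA
A_72_P746609: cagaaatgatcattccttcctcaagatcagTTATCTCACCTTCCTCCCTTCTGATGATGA
A_72_P750437: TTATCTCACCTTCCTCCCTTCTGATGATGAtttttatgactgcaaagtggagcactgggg

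The last 3 sequences belong to probes that rose with HS, named SLA-DRA, SLA-DMB and CD74 in this order.

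A_72_P561324: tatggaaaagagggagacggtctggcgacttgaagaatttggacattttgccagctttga
A_72_P629649: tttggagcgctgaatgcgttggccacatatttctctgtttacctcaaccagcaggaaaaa
A_72_P395573: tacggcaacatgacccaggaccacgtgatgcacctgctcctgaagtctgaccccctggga

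In all, 12 of the 35 probes shared a run of at least 20 bases with another member. A further pair, A_72_P244477 and A_72_P765361, shared no such run but differed at only 3 of 56 aligned bases. Probes of 1 gene therefore do not count as independent measurements. All values are normalized log2 intensities, and levels of different probes cannot be ranked as amounts of RNA, since each probe binds with its own strength. The scanner software judged 33 of the 35 probes well above background on all 35 arrays. The exceptions were A_72_P765361 (SLA-DQA1), on 31 arrays, and A_72_P440006 (SLA-DOB), on 34. No spot of a member was saturated. As a quality measure over all probes, the 75th percentile of the processed intensity was lowest in F1 TN arrays, at 149.9 ± 28.3 (SD, n = 6), against 238 ± 35.6 in F1 HS arrays (n = 6) and group means of 202 to 228 in CR and LW pigs.

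Heat stress was compared with thermoneutral conditions across the breeds to ask how blood transcripts differed between HS and TN pigs. Class II transcripts were higher in HS pigs. All 35 probes had a positive difference, from 0.11 to 0.51 on the log2 scale with a median of 0.33 (1.25-fold), while the median over all 39072 probes was 0.06 and 59.8% of all probes were positive. In the additive limma model of breed and climate, 21 of the 35 probes rose and 0 fell at an adjusted p under 0.05. Of all probes, 20.1% rose and 34.8% changed in either direction. The model of the study, which also held pen, day of slaughter, father and mother, called far fewer probes in blood at the same threshold. The probes that rose were 4 of 4 for CD74, 2 of 2 each for SLA-DMA and SLA-DMB, 6 of 7 for SLA-DQA, 3 of 4 for SLA-DQB1 and 4 of 7 for SLA-DRA. None of the 4 SLA-DRB1, 3 SLA-DOB or 2 SLA-DQA1 probes passed the threshold. The names SLA-DQA and SLA-DQA1 need not mean separate genes. Each SLA-DQA1 probe differed from an SLA-DQA probe at only 5 of 59 or 3 of 56 aligned bases. Within slides that held both climates of at least 1 breed, 25, 32, 35 and 31 of the 35 probes were higher in HS on slides 1 to 4, with medians of 0.10, 0.45, 0.63 and 0.18, and slide 5, with no breed in both climates, gave no value. Without the F1 pigs 0 of 35 members and 0 of all 39072 probes passed, with 35 of 35 members still positive, a median of 0.24 and 16 members at an unadjusted p under 0.05.

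**Figure D1:**
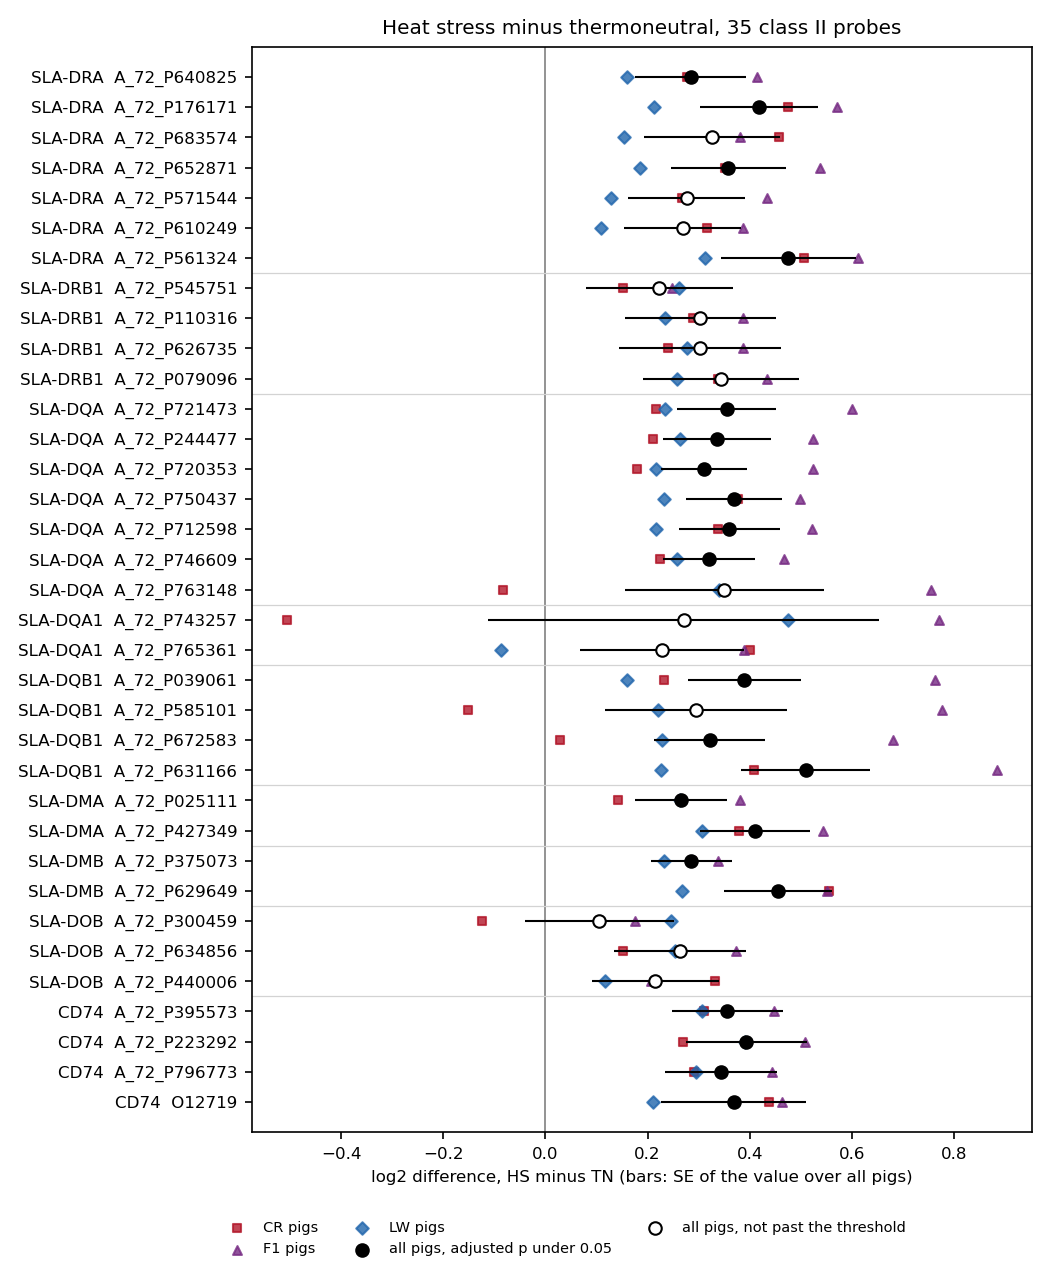
Difference between HS and TN pigs (log2, x axis) for each of the 35 class II probes, grouped by gene name. Circles are the values over all 35 pigs with their standard error, filled where the limma adjusted p was under 0.05, and coloured symbols are the differences within CR, F1 and LW pigs. All 35 circles lie above 0, between 0.11 and 0.51, and in most rows the triangle of the F1 pigs lies farthest to the right.

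SLA-DRA encodes the alpha chain of the DR molecule, which varies little between individuals. Its 7 probes differed by 0.27 to 0.48 between HS and TN. The probe A_72_P561324 showed the largest rise of this gene. In CR pigs it stood at 10.92, 10.42, 10.77, 10.81 and 11.34 in TN, against a lowest value of 10.91, a median of 11.54 and a highest value of 11.60 in HS. In F1 pigs it ranged from 10.002 (median 10.68) to 10.87 in TN and from 10.34 (median 11.24) to 11.99 in HS. In LW pigs it ranged from 10.39 (median 10.65) to 11.23 in TN and from 10.20 (median 11.24) to 11.46 in HS. HS pigs were higher in each breed by their medians, and the groups overlapped in all 3 breeds. The difference was 0.48 ± 0.13 (SE), or 1.39-fold (limma adjusted p = 0.00712), with 16 of 18 HS pigs above the TN mean of their breed. The brightest SLA-DRA probe, A_72_P640825, rose by 0.28 ± 0.11 (limma adjusted p = 0.0394) and missed the threshold in 21 of 46 alternative fits. SLA-DRB1 encodes the variable beta chain of DR. Its 4 probes gave values of 0.22 to 0.34 with adjusted p-values from 0.0768 to 0.223.

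SLA-DQ alpha and beta chains form the other class II molecule that presents peptide. Among the SLA-DQA probes, the difference between HS and TN lay between 0.31 and 0.37. The largest was that of A_72_P750437 (0.37 ± 0.09, 1.29-fold, limma adjusted p = 0.00429). The probe that did not pass was A_72_P763148 (0.35 ± 0.19, adjusted p = 0.155), 1 of the pair shown above whose letters differ from each other at 5 positions. The largest difference of all members was in SLA-DQB1, at A_72_P631166. In CR pigs this probe stood at 8.78, 8.56, 8.85, 8.77 and 8.59 in TN, and between 8.74 (median 9.12) and 9.47 in HS. In F1 pigs the range was 7.15 (median 8.01) to 8.33 in TN and 8.35 (median 8.77) to 9.38 in HS. In LW pigs it was 7.88 (median 8.16) to 8.65 in TN and 7.89 (median 8.51) to 9.10 in HS. The groups did not overlap in F1 pigs and overlapped in CR and LW pigs. The difference was 0.51 ± 0.13 (1.42-fold, limma adjusted p = 0.00363). The brightest SLA-DQB1 probe, A_72_P039061, rose by 0.39 ± 0.11 (adjusted p = 0.00805). It also separated the F1 groups, with 12.21 to 13.24 in TN and 13.40 to 13.86 in HS. In F1 pigs, 4 of the 35 probes had every HS pig above every TN pig, namely 3 SLA-DQB1 probes and the SLA-DQA probe A_72_P721473, against 3.59% of all probes, and 0 of the 35 separated the groups in CR or LW pigs, against 0.417% and 0.683% of all probes.

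**Figure D2:**
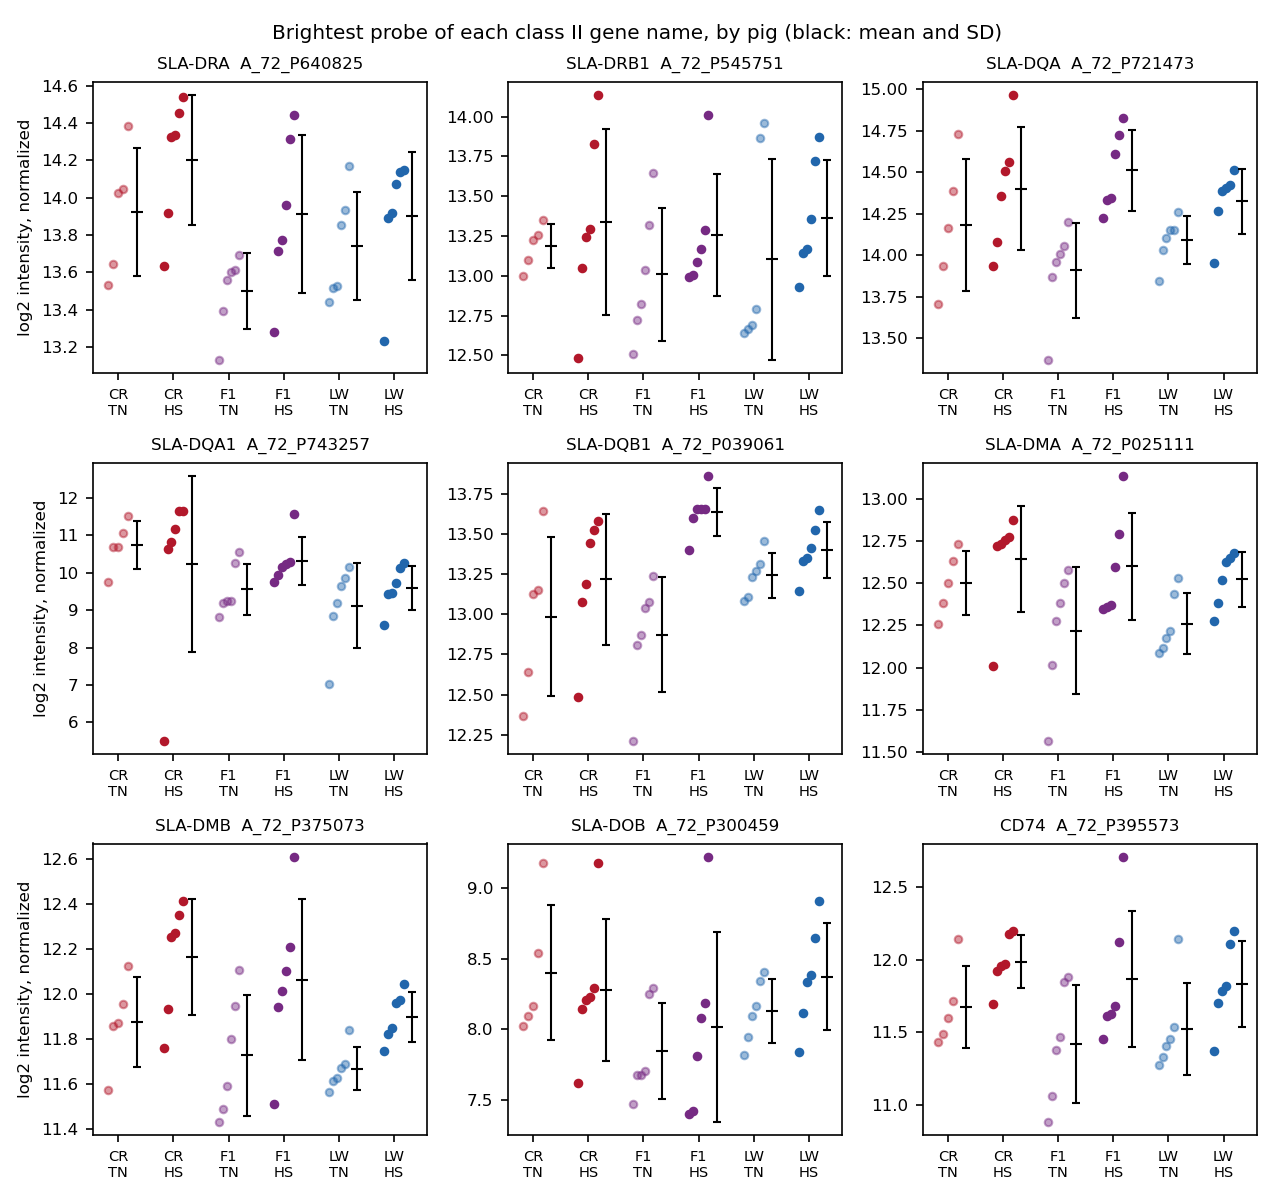
Normalized log2 intensity (y axis) of the brightest probe of each of the 9 gene names, 1 point for each pig, in the 6 groups of breed and climate (x axis), with the mean and SD of each group in black. HS and TN pigs overlap in most panels, and F1 pigs are fully separated for SLA-DQA and SLA-DQB1. CR HS replicate 2 lies at 5.51 for the SLA-DQA1 probe A_72_P743257.

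Both genes of the DM molecule rose at each of their probes. SLA-DMB, the beta chain of the peptide exchanger DM, had the smallest adjusted p of all members at A_72_P629649. In CR pigs its values were 9.20, 8.74, 9.08, 9.13 and 9.42 in TN and 9.32 (median 9.63) to 9.98 in HS. F1 pigs ranged from 8.52 (median 9.004) to 9.36 in TN and from 8.85 (median 9.54) to 10.04 in HS. LW pigs ranged from 8.52 (median 8.88) to 9.54 in TN and from 8.60 (median 9.28) to 9.49 in HS. In CR and F1 pigs, 5 of 6 HS pigs were above the highest TN pig, and in LW pigs 0 were. The difference was 0.46 ± 0.11 (1.37-fold, limma adjusted p = 0.00241). The other SLA-DMB probe, A_72_P375073, rose by 0.29 ± 0.08 (adjusted p = 0.00662), and the SLA-DMA probes A_72_P427349 and A_72_P025111, for the alpha chain of DM, rose by 0.41 ± 0.11 and 0.27 ± 0.09. SLA-DOB, the beta chain of the DM inhibitor DO, gave 0.11 to 0.26 over its 3 probes, with adjusted p-values from 0.108 to 0.591.

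All 4 probes of CD74 rose, by 0.34 to 0.39. At the brightest, A_72_P395573, CR pigs stood at 11.49, 11.71, 11.60, 11.44 and 12.15 in TN and between 11.70 (median 11.96) and 12.20 in HS. F1 pigs ranged from 10.88 (median 11.42) to 11.88 in TN and from 11.45 (median 11.66) to 12.71 in HS, and LW pigs from 11.28 (median 11.43) to 12.15 in TN and from 11.37 (median 11.80) to 12.20 in HS. The groups overlapped in every breed, yet 17 of 18 HS pigs were above the TN mean of their breed. The difference was 0.36 ± 0.11 (1.28-fold, limma adjusted p = 0.013).

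Within breeds, the response passed the test in F1 pigs alone, but a difference between breeds was not shown. In F1 pigs 17 of 35 probes rose (20.8% of all probes rose and 38.7% changed in either direction), with a median difference of 0.47 over the members and 0.13 over all probes. The SLA-DQB1 probes A_72_P631166, A_72_P585101 and A_72_P039061 rose by 0.88 ± 0.21 (1.84-fold, limma adjusted p = 0.00169), 0.78 ± 0.29 (adjusted p = 0.0349) and 0.76 ± 0.18 (adjusted p = 0.00157). In CR pigs 31 of 35 probes were positive with a median of 0.29, and in LW pigs 34 of 35 with a median of 0.23. In both breeds 0 members passed, as did 0% of all probes, and 4 members in CR and 0 in LW had an unadjusted p under 0.05. The interaction of breed and climate called 0 of 35 members and 0% of all probes, with 2 members at an unadjusted p under 0.05 and a smallest adjusted p of 0.312, at the SLA-DQB1 probe A_72_P672583. The response of F1 pigs exceeded that of CR pigs by a median of 0.16 and that of LW pigs by 0.26, and the smallest adjusted p-values of these differences were 0.398 and 0.158. The F1 count was 8 without F1 TN replicate 4, 9 without F1 HS replicate 4, 10 without F1 TN replicate 1 and 11 without F1 HS replicate 5.

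Markers of blood cells were examined in the same contrast, in which 20.1% of all probes rose and 34.8% changed in either direction. Whole blood is a mixture, and fewer cells of a type and less RNA per cell cannot be told apart. Of the 8 B cell marker genes with values (of 14 listed), 3 rose with HS and 8 were positive, with a median of 0.27. They were BLNK, an adaptor of the B cell receptor (0.28 ± 0.09, limma adjusted p = 0.0212), MS4A1, which encodes CD20 (0.38 ± 0.14, adjusted p = 0.0344), and CD79B, a signalling chain of the receptor (0.35 ± 0.14, adjusted p = 0.0445). The mean of the B cell markers in a pig ranged from 9.36 to 10.15 in CR TN, 9.35 to 10.24 in CR HS, 9.04 to 9.66 in F1 TN, 9.46 to 10.18 in F1 HS, 9.17 to 9.80 in LW TN and 9.14 to 9.83 in LW HS. The shift was visible in F1 pigs and small beside the spread in the other breeds.

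Among 17 erythroid genes with values (of 22 listed), 9 fell and 1 rose, with a median of -0.72 (34.8% of all probes changed in either direction). The gene that rose was SLC4A1, the anion exchanger of red cells (0.27 ± 0.10, limma adjusted p = 0.0386). The mean of the erythroid markers ranged from 10.39 to 12.68 in F1 TN and from 9.01 to 11.004 in F1 HS, from 10.25 to 11.77 in CR TN and 9.59 to 11.46 in CR HS, and from 10.76 to 11.71 in LW TN and 10.05 to 11.35 in LW HS. Of the other cell types, 3 of 11 T cell genes and 3 of 10 monocyte genes rose. A fall was called for 1 monocyte gene, 1 of 10 neutrophil genes and 1 of 4 dendritic cell genes, and 0 of 7 platelet genes changed. With 20.1% of all probes rising and 34.8% changing in either direction, these small counts say little about the cell types. Group means of the monocyte list lay between 8.52 and 8.77. With the mean of the erythroid markers as a covariate 0 members passed for HS minus TN (34 of 35 positive, median 0.19), as did 0.00512% of all probes. With the mean of the B cell markers as a covariate 0 members passed (33 of 35 positive, median 0.13), as did 5.5% of all probes. What part of the class II difference went with the numbers of these cells was not tested.

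**Figure D3:**
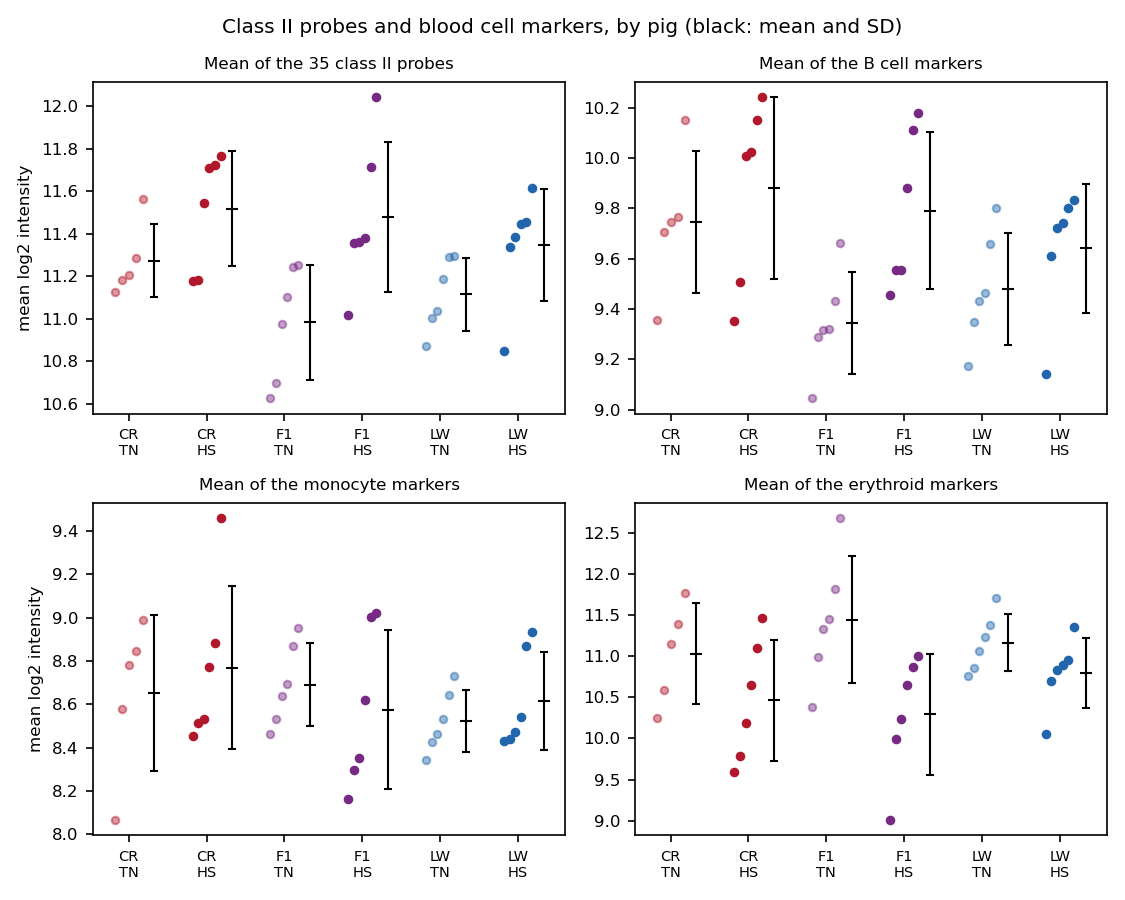
Mean log2 intensity (y axis) over the 35 class II probes, the B cell markers, the monocyte markers and the erythroid markers, 1 point for each pig, in the 6 groups (x axis), with the mean and SD of the group in black. In F1 pigs the group means of the class II probes and B cell markers are higher in HS than in TN, and that of the erythroid markers is lower. The F1 TN and F1 HS pigs overlap in every panel, including that of the monocyte markers.

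Genes around the class II molecules gave a mixed picture. Among 15 genes that act on class II transcription, 2 rose and 3 fell, with a median difference of 0.04. These counts were near the shares over all probes, of which 20.1% rose and 34.8% changed in either direction. RFXANK and RFX5, subunits of the RFX complex that binds class II promoters, fell by 0.59 ± 0.14 (limma adjusted p = 0.00247) and by 0.32 ± 0.12 (adjusted p = 0.0437). PRDM1, which represses the class II transactivator in plasma cells, fell by 0.35 ± 0.09 (adjusted p = 0.00394). The kinase JAK1 and the interferon gamma receptor chain IFNGR2 rose by 0.39 ± 0.10 and 0.31 ± 0.12. Of 8 genes that process antigen and the invariant chain, 3 rose and 0 fell. These were the cathepsins CTSH (0.38 ± 0.08, adjusted p = 0.00206) and CTSB (0.23 ± 0.08, adjusted p = 0.0196) and the thiol reductase IFI30 (0.28 ± 0.09, adjusted p = 0.0182), whereas CTSS, the cathepsin best known for trimming the invariant chain, stood at -0.06 ± 0.15 (adjusted p = 0.789) and is named here after its value was seen. Of 7 genes for turnover and partners of class II at the surface, 4 rose and 0 fell, among them the tetraspanin CD37 (0.40 ± 0.11, adjusted p = 0.0067), LAG3 (0.36 ± 0.11, adjusted p = 0.0151) and CD4 (0.31 ± 0.10, adjusted p = 0.0149), both receptors for class II on T cells. Of 5 costimulatory genes of antigen presenting cells, 3 rose, namely CD80 (0.31 ± 0.07, adjusted p = 0.00166), CD83 (0.26 ± 0.08, adjusted p = 0.0163) and CD40 (0.34 ± 0.13, adjusted p = 0.0362). The others of this list, CD86 and CD274, stood at 0.08 ± 0.09 and 0.03 ± 0.11.

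The CR and LW breeds were compared next, at equal climate in the additive model. The values of CR pigs exceeded those of LW pigs for 30 of the 35 probes, with a median of 0.15 and a median over all probes of -0.01, but only 1 probe passed the threshold, against 1.08% of all probes in either direction and 0.571% in the higher direction. This was A_72_P746609, an SLA-DQA probe. In TN the CR pigs stood at 11.50, 11.40, 11.48, 11.43 and 12.03 and the LW pigs between 10.89 (median 11.06) and 11.24. In HS the CR pigs ranged from 11.36 (median 11.91) to 12.14 and the LW pigs from 10.76 (median 11.40) to 11.54. The breeds were apart in TN and overlapped in HS, and 11 of 11 CR pigs were above the LW mean of their climate. The difference was 0.48 ± 0.11 (1.39-fold, limma adjusted p = 0.0207). It kept its side of the threshold in 46 of 46 alternative fits, with values of 0.28 to 0.55. The probes that overlap it by sequence gave 0.42 ± 0.12 (A_72_P750437, adjusted p = 0.0713) and 0.30 ± 0.12 (A_72_P712598, adjusted p = 0.335). The 4 SLA-DQA probes without that stretch, A_72_P721473, A_72_P720353, A_72_P244477 and A_72_P763148, gave 0.08, 0.03, -0.01 and -0.48.

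**Figure D4:**
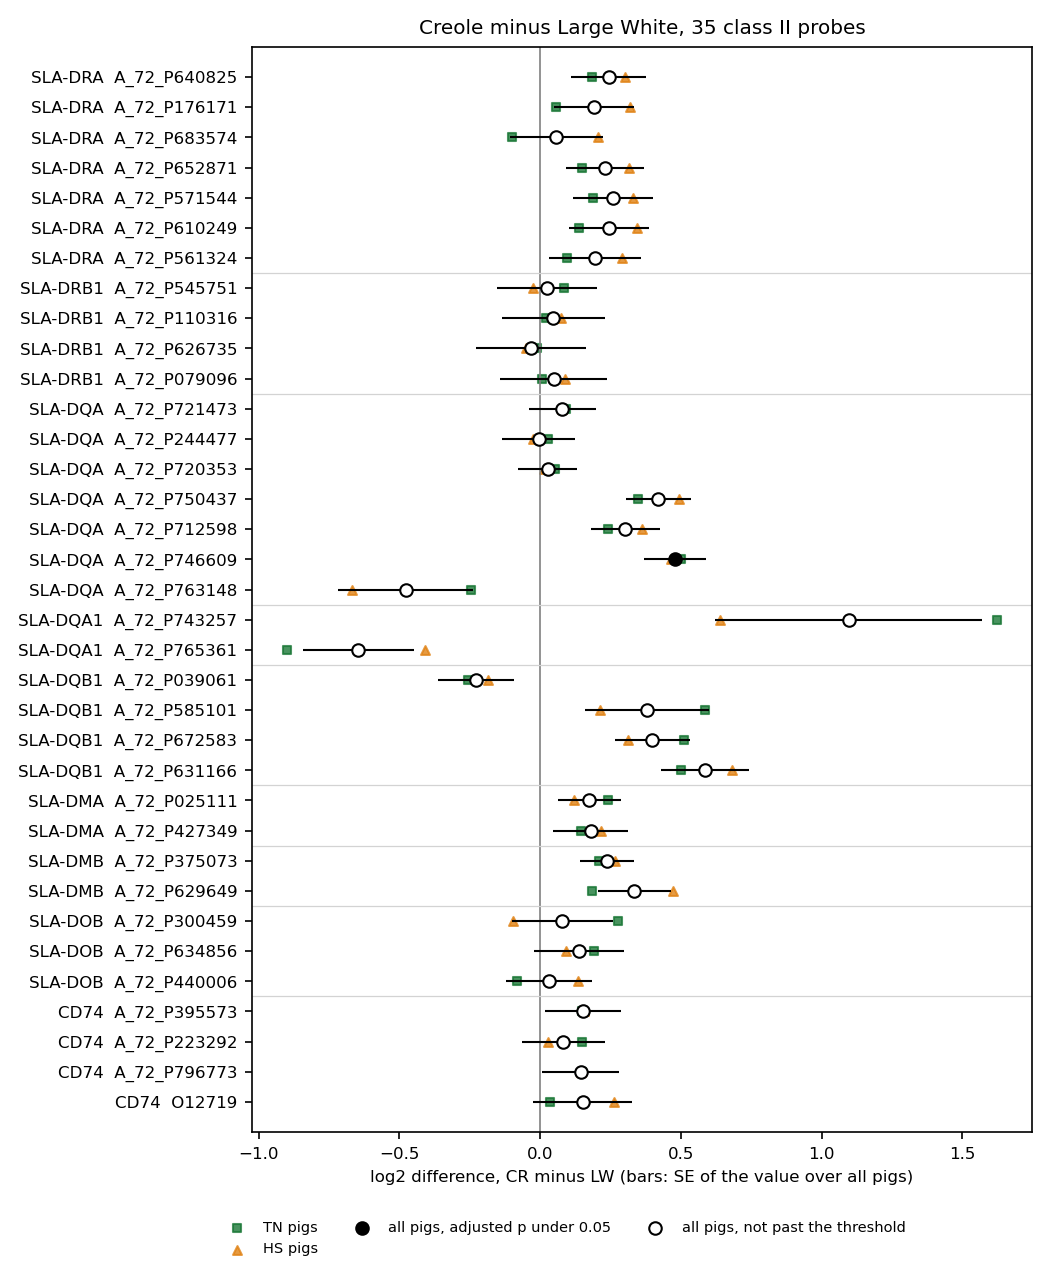
Difference between CR and LW pigs (log2, x axis) for each of the 35 class II probes, grouped by gene name. Circles are the values over both climates with their standard error, filled for the 1 probe with a limma adjusted p under 0.05, and coloured symbols are the differences within TN and within HS pigs. The 7 SLA-DRA probes all lie above 0, whereas SLA-DQA, SLA-DQA1 and SLA-DQB1 probes lie on both sides of 0.

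Probes of the same gene disagreed most in SLA-DQ. For SLA-DQB1, CR minus LW was 0.59 ± 0.16 at A_72_P631166 (limma adjusted p = 0.0534), with 11 of 11 CR pigs above the LW mean, and -0.23 ± 0.14 at A_72_P039061 (adjusted p = 0.64). A_72_P631166 passed the threshold in 11 of 46 alternative fits. The SLA-DQA1 probe A_72_P765361 gave -0.65 ± 0.20 (adjusted p = 0.123), with 2 of 11 CR pigs above the LW mean. This probe was near the floor, well above background on only 3 of 5 CR TN and 5 of 6 CR HS arrays. Its value ranged from -1.41 to -0.46 in alternative fits. The 7 SLA-DRA probes gave 0.06 to 0.26, and the 4 CD74 probes 0.08 to 0.15. Pearson correlations between probes of 1 gene name were taken across the 35 arrays. They were 0.85 to 0.99 for SLA-DRA, 0.92 to 0.98 for SLA-DRB1 and 0.91 to 0.98 for CD74. For SLA-DQB1 they were 0.33 to 0.79, for SLA-DQA 0.19 to 0.97, and for the 2 SLA-DQA1 probes -0.20. These are descriptions over arrays that share group and slide effects.

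The pair of probes that read the same SLA-DQ alpha stretch with 5 other letters gave the widest spread between pigs. A_72_P743257 stood at 11.07, 10.70, 10.70, 11.51 and 9.75 in CR TN pigs, and in CR HS pigs at 5.51 in replicate 2 and at 10.64 to 11.66 in the others. It ranged from 8.81 (median 9.24) to 10.56 in F1 TN, from 9.75 (median 10.20) to 11.57 in F1 HS, from 7.04 (median 9.42) to 10.15 in LW TN and from 8.61 (median 9.59) to 10.25 in LW HS. Of the 11 CR pigs, 9 were above every LW pig, CR TN replicate 5 lay within the range of the LW pigs and CR HS replicate 2 lay below it. CR minus LW was 1.096 ± 0.473 (2.14-fold, limma adjusted p = 0.391) and did not pass the threshold. It passed in 1 of 46 alternative fits, that without CR HS replicate 2, at 1.60 ± 0.29. This pig held the lowest value, 5.51, and is named after that was seen, so no p-value is given for this fit. The partner A_72_P763148 went the other way, with -0.48 ± 0.24 (adjusted p = 0.512).

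Within each pig, the log2 value of A_72_P743257 minus that of A_72_P763148 differed by breed. The zero of this difference has no meaning, since the probes bind with different strength, so only pigs are compared. In the 12 LW pigs it lay between -2.11 and -1.05 with a median of -1.34. In F1 pigs 10 of 12 lay between -1.32 and -1.004, and F1 HS replicate 4 and F1 TN replicate 2 lay at 0.15 and 0.33. In CR pigs 9 of 11 lay between 0.25 and 1.73, CR TN replicate 5 lay at -1.18 and CR HS replicate 2 at -4.00. Thus 1 of 11 CR pigs fell within the range of the LW pigs, and TN and HS pigs of a breed were intermingled. The pair was singled out after these values had been seen, so no test is given.

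**Figure D5:**
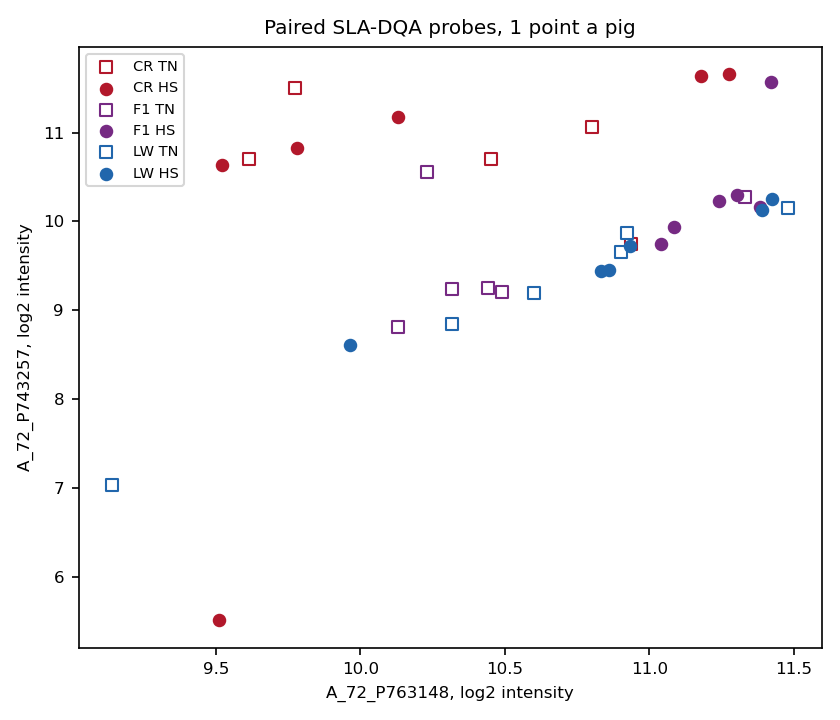
Normalized log2 intensity of A_72_P743257 (y axis) against that of A_72_P763148 (x axis), 1 point for each of the 35 pigs, coloured by breed, with open squares for TN and filled circles for HS. All LW pigs and 10 of 12 F1 pigs follow 1 lower band, 9 of 11 CR pigs lie above it, and CR HS replicate 2 lies far below at 5.51.

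F1 pigs were set against the parental breeds to ask whether the cross lay between them. Against CR pigs, 0 of 35 members passed (0.184% of all probes did), 30 were negative with a median of -0.18, and 10 had an unadjusted p under 0.05. The smallest adjusted p was that of A_72_P631166 of SLA-DQB1, with -0.60 ± 0.16 (limma adjusted p = 0.144), and the largest value in size was 0.61 ± 0.24 at A_72_P763148 of SLA-DQA (adjusted p = 0.747). Against LW pigs, 0 members passed (0.0256% of all probes did), 20 were negative with a median of -0.02, and 0 had an unadjusted p under 0.05. Against the mean of the parental breeds, 0 members passed (0.0717% of all probes did), 29 were negative with a median of -0.09, and 3 had an unadjusted p under 0.05. By value, F1 minus LW was negative for 30 of 35 members in TN and positive for 29 of 35 in HS. Of all probes, 43.3% were positive in TN and 52.2% in HS. In either climate 0 members passed the threshold (0% of all probes in TN and 0.00768% in HS), and 1 and 2 members had an unadjusted p under 0.05. The difference in heat response between F1 and LW pigs called 0 members and 0% of all probes (smallest limma adjusted p of a member = 0.158). A dependence of the direction on climate was therefore not shown. The 3 breed contrasts share pigs and are not independent of each other.

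A further 5 probes outside the chosen names had the same sequence as a member and served as technical repeats on the same arrays. Their HS minus TN values differed from those of the members by at most 0.03, and their Pearson correlations with the members were 0.96 to 0.996. Their levels agreed less, with median differences from the members of -0.50 to 0.44 and a largest difference of 0.59 on an array. Another 11 probes had a name or description that mentions class II genes. Of these 7 had values and 1 rose with HS, a probe named HLA-DQB1 after the human gene (0.40 ± 0.11, limma adjusted p = 0.00666). The other 6 gave values from -0.04 to 0.25, of which 4 were positive. The probes named HLA-DRA and DRB3 stood at 0.24 ± 0.12 (adjusted p = 0.109) and 0.22 ± 0.13 (adjusted p = 0.195), that named HLA-DQA1 at -0.01 ± 0.07 (adjusted p = 0.878), and A_72_P269019, described as DR beta 1, at -0.04 ± 0.09 (adjusted p = 0.718). The HLA-DQA1 probe had a low mean level of 5.23 and was well above background on only 16 of the 35 arrays. A_72_P269019 had a low mean level of 5.69. Such weak signals limit what these differences near 0 show. Among 8470 named genes, the 4 reported here that were most like the brightest SLA-DRA probe over the 35 arrays were HLA-DRA (Pearson r = 0.97), FCRL1 (0.88), CD72 (0.87) and TLR10 (0.86). After group means were removed these values were 0.96, 0.84, 0.83 and 0.81. The probe named HLA-DRA is described as DR alpha, the same chain as SLA-DRA, and does not count as a separate gene.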

How the data were processed

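The authors deposited scanner intensity files of 35 one-colour Agilent porcine arrays, read per the file headers with Feature Extraction 10.10.1.1, and a table of log2 values of 39072 probes, which they made by quantile normalization and a filter on expressed probes. These log2 values were used here. Values recomputed from the deposited median intensity correlated with them at 0.99997, with a largest difference of 0.09 for the members. Each probe was fitted in R 4.3.3 with limma 3.58.1 (lmFit, eBayes), in an additive model of breed and climate and in a model of the 6 group means. P-values were two-sided and adjusted by the Benjamini-Hochberg procedure over all 39072 probes, with a threshold of 0.05. The pen, day of slaughter, father and mother in the model of the study have no labels and could not be fitted. Per gene name the brightest probe was named, with up to 3 probes past the threshold for each contrast, the 5 largest CR minus LW differences, and up to 4 genes of a list in each direction. Members, lists and tests were chosen with earlier results of these data known. Probes with a matching sequence and the paired SLA-DQA probes were chosen after their values were seen. Alternatives were other normalizations, filters, slide, array weights, marker covariates and leaving out pigs. The fitting code was tested on simulated data. The number of arrays limits the precision. No genome was used, so no coordinates are given. Values of some genes that the naming rule picked are not reported here.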

Additional observations from a re-analysis of the deposited data

Results flagged for a closer look

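In 15 of 138 sets of pigs (the 6 groups for each of 23 named probes), the highest or lowest pig stood far from the rest of its group. Chance gives about 1 in 20 such sets, and overlapping probes of a gene flag the same pig together. F1 HS replicate 4 was high for the SLA-DRB1 probe A_72_P545751 (14.01, others 12.99 to 13.29), the SLA-DQA1 probe A_72_P743257 (11.57, others 9.75 to 10.30) and the SLA-DQB1 probe A_72_P672583 (13.51, others 12.71 to 12.91). F1 TN replicate 4 was low for A_72_P672583 (11.46, others 12.24 to 12.70). LW HS replicate 1 was low for the SLA-DRA probe A_72_P640825 (13.23, others 13.89 to 14.15) and the SLA-DQA probes A_72_P750437 (11.28, others 11.84 to 11.95) and A_72_P746609 (10.76, others 11.35 to 11.54). LW TN replicate 4 was high for 3 CD74 probes, A_72_P395573 (12.15, others 11.28 to 11.54), A_72_P223292 (11.75, others 10.99 to 11.22) and A_72_P796773 (10.99, others 10.22 to 10.42). CR TN replicate 5 was high for the CD74 probe A_72_P223292 (11.82, others 11.17 to 11.34) and the SLA-DQA probe A_72_P746609 (12.03, others 11.40 to 11.50). CR HS replicate 2 was far below the others for A_72_P743257 (5.51, others 10.64 to 11.66). CR HS replicate 4 was low for the SLA-DMA probe A_72_P025111 (12.01, others 12.72 to 12.87), and F1 TN replicate 6 was high for the SLA-DQA probe A_72_P763148 (11.33, others 10.13 to 10.49).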

How the results depend on the processing

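The count of 21 members higher in HS stayed between 20 and 25 under other normalizations, filters, slide as a block, array weights and a trend in limma, and between 19 and 26 when each pig was left out. It was 0 with the erythroid mean or the B cell mean as a covariate and 0 without F1 pigs. With these covariates SLA-DOB A_72_P300459 turned to -0.076 (erythroid) and -0.029 (B cell), and SLA-DRB1 A_72_P545751 to -0.013 (B cell). The cause was not tested. The single call of CR minus LW became 4 with slide as a block, 7 with array weights, 3 and 2 with the erythroid and B cell covariates, and 2 without F1 pigs. Leaving out 1 pig gave 1 to 2, with 2 without CR HS replicates 1, 2 or 4, F1 TN replicates 1 or 4, F1 HS replicate 4, LW HS replicate 2 or LW TN replicates 3, 4 or 6. F1 minus CR had 1 call with array weights and 0 to 1 when a pig was left out (1 without F1 HS replicate 4). The F1 response had 13 calls with scaling on the 75th percentile, 24 with slide as a block, and 8 to 23 when a pig was left out. Every other count was 0 in all settings run. Leaving out a pig from the contrasts between groups, and all alternatives for the mid-parent contrast, were added after seeing the data. No paired analysis was possible because the labels give neither the litter nor the pen of a pig, and the replicate numbers used here only name the pigs.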
